A study of Homo sapiens with 10 samples.

Results

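The genes described here encode the proteins of the mitochondrial ribosome and were chosen by name. Every gene row whose symbol is MRPL or MRPS followed by a number, with an optional letter A to C, was taken if it averaged at least 1 CPM (counts per 1000000 counts of a library) over the 10 libraries. Of 40664 gene rows, 77 had such a symbol and 76 passed the level. The row left out was MRPL45, with 0.457 CPM before scaling between libraries, and the lowest gene kept was MRPS12. A further 79 rows are pseudogenes of these genes, which summed to 4.43 to 8.57 CPM in a library. Most of this came from pseudogenes of MRPS31, which averaged 5.28 CPM beside 20.4 CPM for MRPS31 itself. All 76 genes also passed the filter on low counts that left 13990 genes for testing.

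The cells were hTERT RPE-1, an established human line from retinal pigment epithelium that was immortalised with telomerase. They were treated with small interfering RNA against Nemp1 (siNemp1), a gene for a protein of the nuclear envelope, or served as controls, on substrates of 120 or 10 kPa. There were 3 siNemp1 and 3 control libraries at 120 kPa, and 2 siNemp1 and 2 control libraries at 10 kPa, each numbered by replicate. The sources used here do not say what the control cells received, how long treatment lasted or whether replicates came from separate cultures, so p-values reflect only how far the libraries of a group lie apart, a spread that may be technical.

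NEMP1 itself read 7.52, 6.70 and 4.11 CPM in siNemp1 libraries at 120 kPa, against 18.3, 14 and 14.1 CPM in controls. At 10 kPa it read 8.22 and 7.63 CPM in siNemp1 libraries, against 14.1 and 17.3 CPM in controls. Libraries held 17.9 to 23.8 M estimated counts, where M stands for 1000000. The epithelial keratins KRT8 and KRT18 stood at 755 to 1200 and 500 to 772 CPM and the pigment epithelium genes BEST1, MITF and OTX2 at 18.4 CPM or more. EPCAM, CDH1, RPE65 and RLBP1, also markers of these types, were at 0.162 CPM or less in all libraries. The rest of these lists was low too. KRT19 reached 0.421, TYR 0.629, SERPINF1 1.4, TYRP1 3.39 and PMEL 3.74 CPM at most. Of 6 fibroblast markers, THY1 ranged between 255 and 832 CPM and made up most of the list's sum. PDGFRB ranged between 35.9 and 85.4, DCN between 8.87 and 22.9 and COL1A1 between 4.13 and 7.96 CPM. COL1A2 and LUM were at 0.506 CPM or less. The summed fibroblast list spanned 308 to 717 CPM in siNemp1 libraries at 120 kPa, against 680 to 889 CPM in controls. At 10 kPa it spanned 745 to 746 CPM in siNemp1 libraries, against 931 to 934 CPM in controls. Its part in the results below was not tested. In bulk samples, a change in the share of cells that carry an RNA and a change of that RNA per cell cannot be told apart.

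Mitochondria keep their own ribosome, which translates the few proteins encoded in mitochondrial DNA, all of them subunits of the respiratory chain and the ATP synthase. Its 2 ribosomal RNAs, MT-RNR1 in the small and MT-RNR2 in the large subunit, are transcribed inside the organelle. Its proteins are made from nuclear genes in the cytosol and imported. Some of these proteins have counterparts in bacterial ribosomes and others exist only in mitochondria. Of the 76 genes, 29 encode large subunit proteins shared with bacteria and 20 large subunit proteins specific to mitochondria. In the small subunit the numbers are 16 and 10. MRPS30 and MRPS18A carry small subunit names but sit on the large subunit in structures, and they are counted there. MRPS36 belongs to the oxoglutarate dehydrogenase complex in current descriptions and is kept as a class of its own.

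Levels differed widely between the genes. On the scale of CPM per kilobase of transcript, averaged over all libraries, MRPS24 stood at 190, followed by MRPL36 at 147 and MRPL55 at 111 CPM per kilobase. MRPL35 and MRPL50 had the lowest levels at 6.15 CPM per kilobase, below MRPL1 at 7.83 and MRPS12, which sits at the decoding centre, at 7.92. The counts behind these levels, not corrected for length, ranged between 9.56 CPM for MRPS12 and 172 CPM for MRPL49. Transcripts of these genes were short, with a median annotated length of 1360 bases against 2813 bases over the 13826 tested genes with an annotation, and their median GC content was 49.6% against 48.6%.

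The promoters of many of these genes hold letters known from factors that drive nuclear genes for mitochondria. RefSeq promoters (GRCh38.p14, 250 bases before to 30 bases after the start of transcription) were matched for 68 of the 76 genes by symbol. CCGGAAG, the core bound by ETS family factors such as GABP, was found on either strand in 29 of 68 (42.6%), against 10.3% of all 27305 promoters in the table and 18.5% of those of tested genes. AAGATGG, bound by YY1, was found in 20 of 68 (29.4%), against 5.35% of all promoters and 6.48% of those of tested genes. GCGCATGC, the centre of the NRF1 site, occurred in 6 of 68 (8.82%), against 3.19% of all and 5.47% of tested promoters. The E-box CACGTG occurred in 5 (7.35%), against 7.14% of all and 9.56% of tested promoters, and the TATA box letters TATAAA in 2 (2.94%), against 11.6% of all and 5.65% of tested promoters. Both strands were searched, and none of the 5 motifs is contained in another. A match is a description of the letters and not evidence of binding.

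The YY1 letters contain ATG. A match after the start of transcription may therefore also be a start codon of translation, which was not tested. In part of the genes these letters lay in a particular place. In 13 of the 68 genes (19.1%) they ran in the sense direction within the first 30 transcribed bases, against 1.26% of all promoters and 2.67% of those of tested genes. The first 6 sequences below are of this kind, from genes whose response to siNemp1 is given further on. MRPL49 and MRPL36 are shown beside them because there the letters lie before the start. Each is 30 bases, 5′ to 3′ on the strand of the gene, with the matched letters in capitals.
MRPS7 (chr17:75261879-75261908, plus strand): ggggtcctcgtggccagccAAGATGGctgc
MRPL46 (chr15:88467362-88467391, minus strand): tgggagaacgaAAGATGGcggcgcccgtaa
MRPS10 (chr6:42217834-42217863, minus strand): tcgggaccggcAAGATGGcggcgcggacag
MRPS18A (chr6:43687764-43687793, minus strand): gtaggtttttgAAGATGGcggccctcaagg
MRPS18B (chr6:30617840-30617869, plus strand): aattcctgtcctgggcgtacgtcAAGATGG
MRPL51 (chr12:6493233-6493262, minus strand): acagctgcctgggtaaggcccAAGATGGct
MRPL49 (chr11:65122104-65122133, plus strand): cagctaccgcgAAGATGGagtcgagaaaga
MRPL36 (chr5:1799853-1799882, minus strand): cccccccgccgCCATCTTccttcctggcag

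The NRF1 letters of MRPL17 and MRPL32 and the ETS letters of MRPL33, MRPL40 and MRPL58 are shown next, since these genes are among those that rose under siNemp1. MRPL17 holds the NRF1 letters at 3 places, 2 of which overlap, and the separate one is printed.
MRPL17 (chr11:6683365-6683394, minus strand): tccgagctaagGCGCATGCgttccctgaaa
MRPL32 (chr7:42932326-42932355, plus strand): tctgtgcctgtGCGCATGCtgaaagcaggg
MRPL33 (chr2:27771700-27771729, plus strand): cgggccgtgccCCGGAAGcagttgttgttg
MRPL40 (chr22:19432523-19432552, plus strand): ggggcgcacgcCCGGAAGcggcgagggtag
MRPL58 (chr17:75012651-75012680, plus strand): ggaagcgcccgCCGGAAGcagtcgcaagac

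MRPS6, described below for its opposite differences at the 2 stiffnesses, has none of the 5 motifs in its window, and 83.9% of the window is G or C. It is shown whole for that contrast, with no capitals because nothing matched.
MRPS6 (chr21:34073328-34073607, plus strand): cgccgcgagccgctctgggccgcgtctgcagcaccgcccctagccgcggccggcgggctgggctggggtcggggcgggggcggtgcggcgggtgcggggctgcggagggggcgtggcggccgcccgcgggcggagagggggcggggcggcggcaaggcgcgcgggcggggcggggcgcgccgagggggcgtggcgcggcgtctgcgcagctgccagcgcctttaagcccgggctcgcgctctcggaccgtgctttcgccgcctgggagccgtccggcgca

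The first comparison was of siNemp1 with control cells at 120 kPa. Summed over the 76 genes, RNA for mitochondrial ribosomal proteins stood at 4728, 4768 and 5222 CPM in the siNemp1 libraries, against 3452, 3644 and 4620 CPM in the control libraries. The means were 4906 ± 275 CPM in siNemp1 and 3905 ± 626 CPM in control libraries (SD, n = 3 each). Every siNemp1 library was above every control library, and control replicate 3 came close to siNemp1 replicates 1 and 2. These sums were 0.438% to 0.548% of all counts in siNemp1 libraries and 0.345% to 0.472% in controls.

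**Figure D1:**
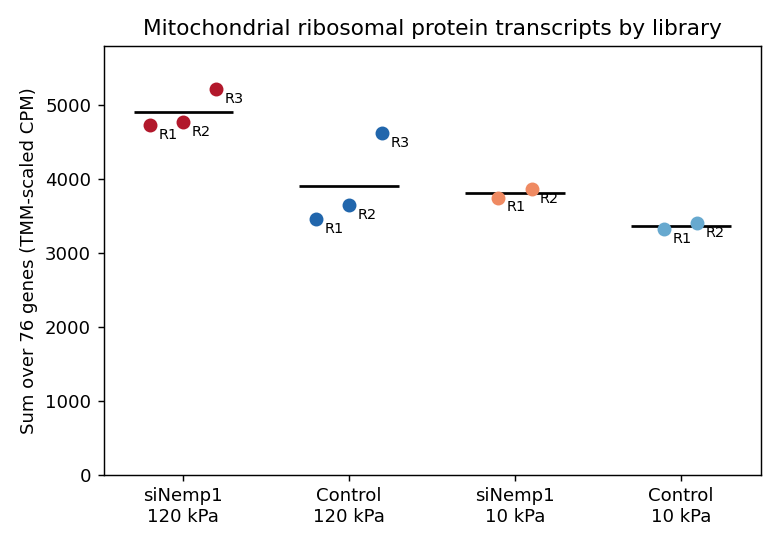
Sum of 76 mitochondrial ribosomal protein genes in each of 10 libraries (y axis, TMM-scaled CPM), by group (x axis). Each point is 1 library labelled with its replicate number and each line the mean of the group. The siNemp1 libraries at 120 kPa lie between 4728 and 5222 CPM, and control replicate 3 at 120 kPa, at 4620 CPM, stands apart from the other controls.

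Same-numbered libraries at 120 kPa deviated together from their group means, so a fit blocked on replicate number is given beside the fit without the block. In the blocked edgeR fit, 25 of 76 genes rose under siNemp1 at an adjusted p under 0.05 and none fell, with a median log2 change of 0.33 over all 76. Over all tested genes, 873 of 13990 (6.24%) rose by the same rule and the median log2 change was 0.01. Without the block no gene of the 76 was called, and none of all 13990 (0%). In that fit 37 of the 76 genes had an unadjusted p under 0.05, beside 2413 of the 13990. Of the 76 genes 72 had a positive log2 change, against 50.8% of all tested genes, and the median was 0.32. DESeq2 without a block called 12 of the 76, all higher and all among the 25. It called 453 of 23537 genes higher (1.92%), a base that includes low-count genes left out of the 13990.

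The 2 sets of libraries did not overlap in 24 of the 76 genes, all of them higher in siNemp1 cells, against 10.9% of all tested genes. Leaving out control replicate 3 gave 22 called genes without any block, of which 18 were among the 25, with a background of 3.43%. Without the pair of libraries numbered 2, the blocked edgeR fit called none of the 76 and none of all genes higher, while 40 of the 76 had an unadjusted p under 0.05 and their median log2 change was 0.30. Removing trends of each library with transcript length and GC content from the blocked fit left 10 genes called, 8 of them among the 25, with a background of 3.82% and a median log2 change of 0.22 over the 76.

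MRPL49 had the largest change. It encodes a mitochondria-specific protein of the large subunit and lies at chr11:65122183-65127371 on the plus strand (ENSG00000149792, GENCODE 29 on GRCh38). It read 258, 252 and 265 CPM in siNemp1 libraries at 120 kPa, against 122, 133 and 185 CPM in controls. The siNemp1 values lay close together and above all controls. Its log2 change was 0.84 ± 0.11 (SE) in the blocked edgeR fit, with an adjusted p of 0.0057, and 0.82 ± 0.15 without the block, with an adjusted p of 0.057.

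MRPL49 overlaps FAU, which encodes a fusion of a ubiquitin-like protein with a cytosolic ribosomal protein, and SYVN1, which encodes a ubiquitin ligase of the endoplasmic reticulum. FAU averaged 362 ± 47.6 CPM in siNemp1 and 299 ± 94.6 CPM in control libraries (SD, n = 3 each), a log2 difference of 0.31 ± 0.11 with an edgeR adjusted p of 0.11 in the blocked fit. SYVN1 differed by −0.07 ± 0.15. The sources used here do not say whether the libraries keep strand, so reads where genes overlap on opposite strands cannot be assigned with certainty. Of the 76 genes, 38 overlap another protein-coding gene, 26 of them one on the opposite strand.

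MRPS6, a small subunit protein shared with bacteria, lies at chr21:34073224-34143034 on the plus strand (ENSG00000243927). It read 63.5, 59.9 and 58.2 CPM in siNemp1 libraries at 120 kPa, against 40.3, 38.2 and 39.6 CPM in controls. Both groups were tight and far apart. The log2 change was 0.62 ± 0.09 in either fit, with an edgeR adjusted p of 0.0062 with the block and 0.051 without it. SLC5A3, a transporter gene on the same strand inside MRPS6, averaged 20.5 ± 5.19 CPM in siNemp1 and 19.1 ± 3.20 CPM in control libraries (SD, n = 3 each) and differed by 0.08 ± 0.12 on the log2 scale.

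Among large subunit proteins shared with bacteria, 8 of 29 rose in the blocked fit. MRPL33, a small protein of this subunit, read 25.7, 26.1 and 36.7 CPM in siNemp1 libraries, against 16.8, 14.9 and 23.9 CPM in controls. Replicate 3 was the highest of both groups, and the groups did not overlap. Its log2 change was 0.68 ± 0.12, with an edgeR adjusted p of 0.0097. MRPL32, which a protease of the inner membrane trims in yeast and mouse before it joins the ribosome, rose by 0.56 ± 0.10. MRPL36, MRPL15 and MRPL14 rose by 0.46 ± 0.09, 0.51 ± 0.11 and 0.57 ± 0.12, and their groups overlapped through control replicate 3. The other 3 of the class that rose were MRPL13, MRPL17 and MRPL27.

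MRPL12, MRPL11 and MRPL10 form or carry the flexible stalk that recruits translation factors, and none of them passed the test. MRPL12 read 22.2, 33.8 and 44.3 CPM in siNemp1 libraries, against 14.7, 27.4 and 47.0 CPM in controls. Replicate 3 was the highest and replicate 1 the lowest in both groups. MRPL11 differed by 0.41 ± 0.15 (edgeR adjusted p = 0.10) and MRPL10 by 0.31 ± 0.09 (adjusted p = 0.062) in the blocked fit.

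Among mitochondria-specific large subunit proteins, 10 of 20 rose. Besides MRPL49 these were MRPL39, MRPL40, MRPL43, MRPL46, MRPL48, MRPL51, MRPL54, MRPL57 and MRPL58. MRPL58, a peptidyl-tRNA hydrolase that rescues stalled mitochondrial ribosomes and is also a built-in subunit, read 19.9, 18.2 and 26.0 CPM in siNemp1 libraries, against 11.2, 13.8 and 19.2 CPM in controls. The groups overlapped only through control replicate 3. It rose by 0.56 ± 0.14, with an edgeR adjusted p of 0.034. MRPL44, which resembles the ribonuclease III family, read 40.7, 37.2 and 32.1 CPM in siNemp1 libraries, against 32.0, 30.4 and 31.9 CPM in controls, and was not called (0.21 ± 0.11, adjusted p = 0.24).

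In the small subunit, 4 of 16 shared and 3 of 10 mitochondria-specific proteins rose in the blocked fit. The shared ones were MRPS6, MRPS7, MRPS10 and MRPS16. MRPS7, which contacts the ribosomal RNA of the small subunit's head, read 97.1, 103 and 131 CPM in siNemp1 libraries, against 61.3, 69.8 and 102 CPM in controls. It rose by 0.53 ± 0.09, with an edgeR adjusted p of 0.011, although control replicate 3 reached the siNemp1 range. The mitochondria-specific ones were MRPS18B, MRPS33 and MRPS35. Of the 3 genes that share the name MRPS18, MRPS18B rose by 0.37 ± 0.09, while MRPS18A differed by 0.24 ± 0.09 (edgeR adjusted p = 0.13) and MRPS18C by 0.14 ± 0.10 (adjusted p = 0.43). MRPS12 read 5.90, 18 and 11.6 CPM in siNemp1 libraries, against 4.03, 14 and 8.76 CPM in controls. In MRPS12 each siNemp1 library exceeded the control library of its number.

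Of the 4 genes with a negative log2 change, none was called. MRPL30, a large subunit protein shared with bacteria, read 55.2, 48.8 and 35.3 CPM in siNemp1 libraries, against 66.2, 51.8 and 47.6 CPM in controls. Each siNemp1 library was below the control library of its number, and the groups overlapped. Its log2 difference in the blocked fit was −0.26 ± 0.10, with an edgeR adjusted p of 0.14. MRPS5, MRPS2 and MRPL19 differed by −0.12 ± 0.10, −0.10 ± 0.15 and −0.05 ± 0.11.

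**Figure D2:**
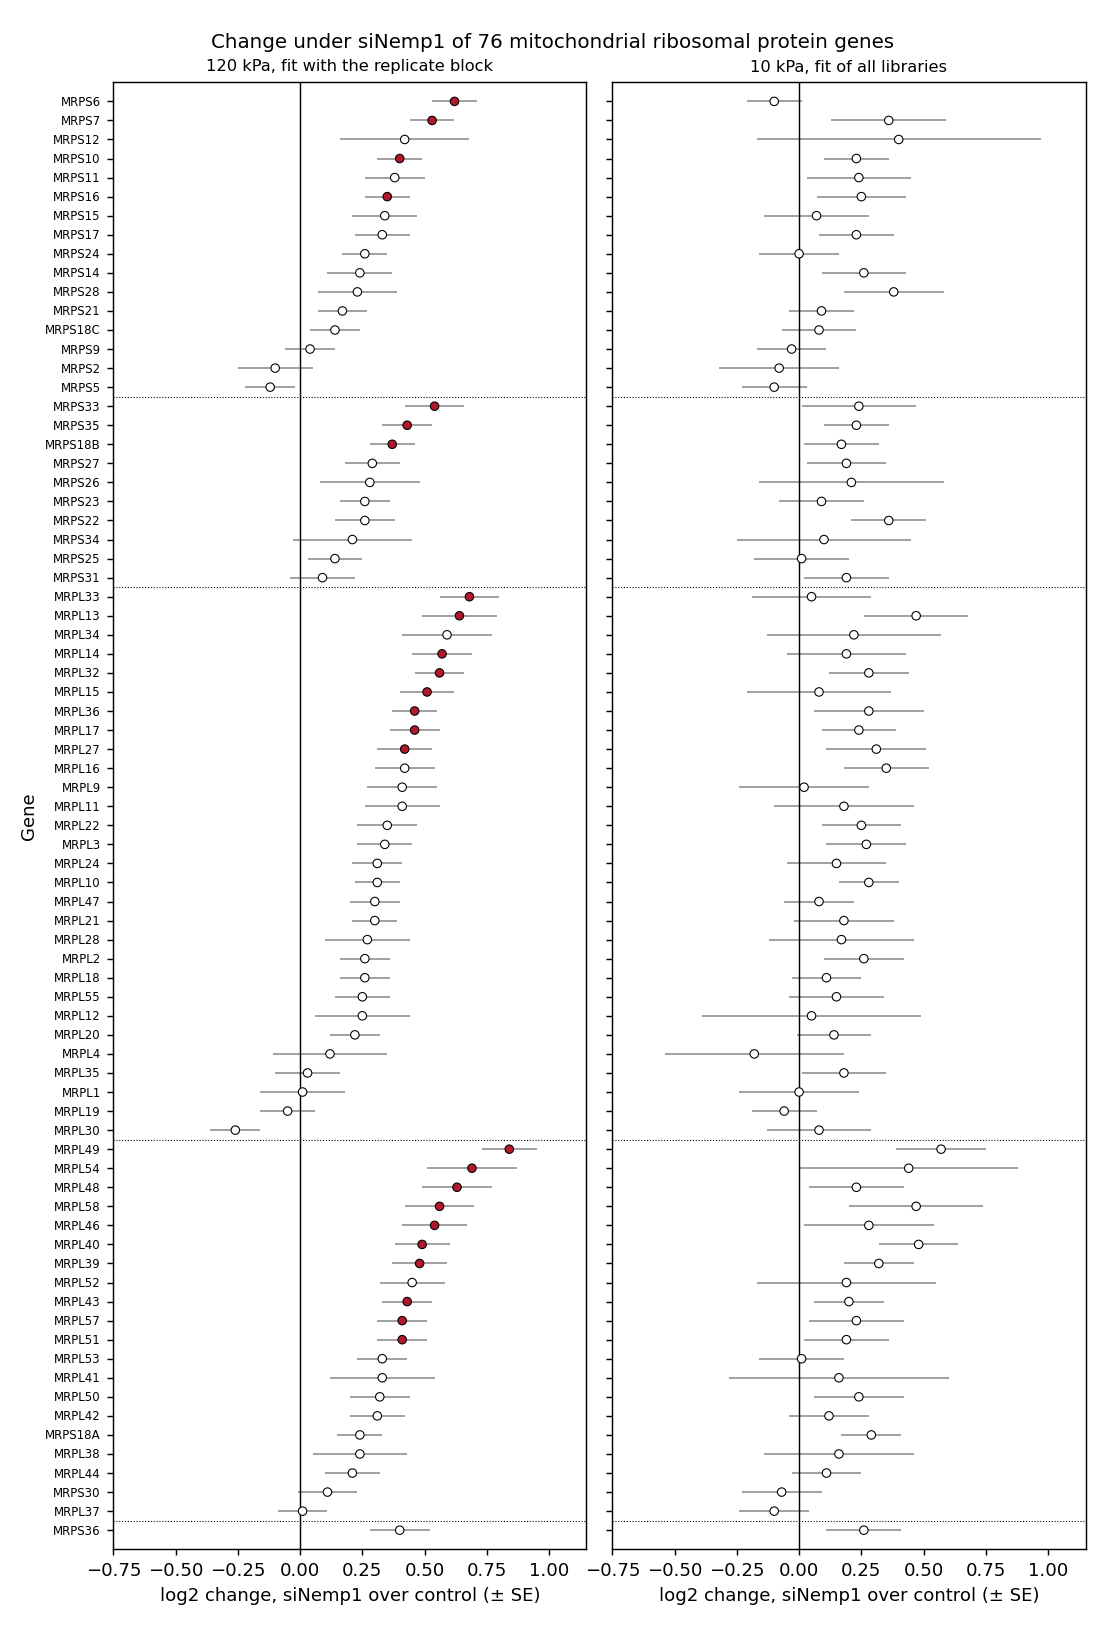
Log2 change of each of 76 genes (rows) under siNemp1 relative to control cells, at 120 kPa in the blocked fit (left) and at 10 kPa in a fit of the 10 libraries (right), with standard errors as bars. Filled points have an edgeR adjusted p under 0.05, and dotted lines part small subunit genes shared with bacteria, small subunit genes specific to mitochondria, the same 2 classes of the large subunit, and MRPS36. At 120 kPa 25 points are filled, led by MRPL49 at 0.84, and at 10 kPa none is.

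The median log2 change of the blocked fit was 0.34 over 49 large subunit genes, of which 18 rose, and 0.27 over 26 small subunit genes, of which 7 rose. The difference between the subunits was not tested. Summed CPM of small over large subunit genes was 0.556, 0.561 and 0.555 in siNemp1 libraries at 120 kPa, against 0.615, 0.605 and 0.552 in controls. Control replicate 3 was below the 3 siNemp1 libraries, and the other controls were above them.

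The promoter letters were then set against the response. Of the 29 genes with ETS letters 11 rose at 120 kPa with a median log2 change of 0.34, against 12 of the 39 without them and a median of 0.33. Of the 20 with YY1 letters 9 rose (median 0.36), against 14 of 48 without (median 0.33). Of the 6 with NRF1 letters 3 rose (median 0.41), against 20 of 62 without (median 0.32). These differences were not tested.

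Most messenger RNAs of mitochondrial DNA and 1 of its 2 ribosomal RNAs fell under siNemp1 at 120 kPa in the blocked fit. MT-RNR2 read 2440, 2160 and 1380 CPM in siNemp1 libraries at 120 kPa, against 3600, 2740 and 2030 CPM in controls. Every siNemp1 library was below the control of its number, and the groups overlapped. Its log2 change was −0.49 ± 0.11 in the blocked fit, with an edgeR adjusted p of 0.020. MT-RNR1 read 304, 268 and 188 CPM in siNemp1 libraries, against 344, 265 and 214 CPM in controls, and was not called (−0.12 ± 0.10, adjusted p = 0.49). Ribosomal RNA was depleted before sequencing, so both values are what the depletion left. Of the 13 messenger RNAs of mitochondrial DNA, which this ribosome translates, 11 fell in the blocked fit and none rose. Over all tested genes 351 of 13990 fell in that fit. The median log2 change of the 13 was −0.59. Without the block edgeR called none of them, 11 had an unadjusted p under 0.05 and the median was −0.62.

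Other genes of the same machinery were taken from lists, whose counts stand beside the 6.24% of all tested genes that rose in the blocked fit. None of 5 mitochondrial ribosomal proteins with other symbols was called by edgeR at 120 kPa in the blocked fit, where 2 had an unadjusted p under 0.05 and the median log2 change was 0.27, DAP3 among them with 0.27 ± 0.09 and an edgeR adjusted p of 0.086. Of 13 translation factors, 1 rose and the median was 0.02. The riser was GFM2, which splits the ribosome after termination, with 68.6, 56.1 and 53.8 CPM in siNemp1 libraries, against 51.5, 44.8 and 41.0 CPM in controls (0.38 ± 0.09, edgeR adjusted p = 0.033). Of 25 assembly and RNA modification factors 2 rose, the helicase DDX28 by 0.68 ± 0.18 and the pseudouridine synthase RPUSD4 by 0.34 ± 0.09, and the list's median was 0.21. Of 12 genes for mitochondrial transcription and RNA stability 2 rose, SLIRP by 0.52 ± 0.11 and the transcription factor TFB2M by 0.54 ± 0.14, with a median of 0.18. TFAM, which packages mitochondrial DNA, differed by 0.48 ± 0.14 with an edgeR adjusted p of 0.056. None of 9 regulators of mitochondrial biogenesis was called by edgeR, although 2 had an unadjusted p under 0.05, and the median was 0.20. PPRC1, a coactivator of that group, had the smallest adjusted p among them, with −0.28 ± 0.09 and 0.084.

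A positive shift was not confined to the mitochondrial ribosome. Of 78 genes for cytosolic ribosomal proteins 29 rose in the same blocked fit, with a median log2 change of 0.33, and of 32 nuclear genes for complex I subunits 12 rose, with a median of 0.35. Whether the mitochondrial ribosomal genes differ from these lists was not tested.

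**Figure D3:**
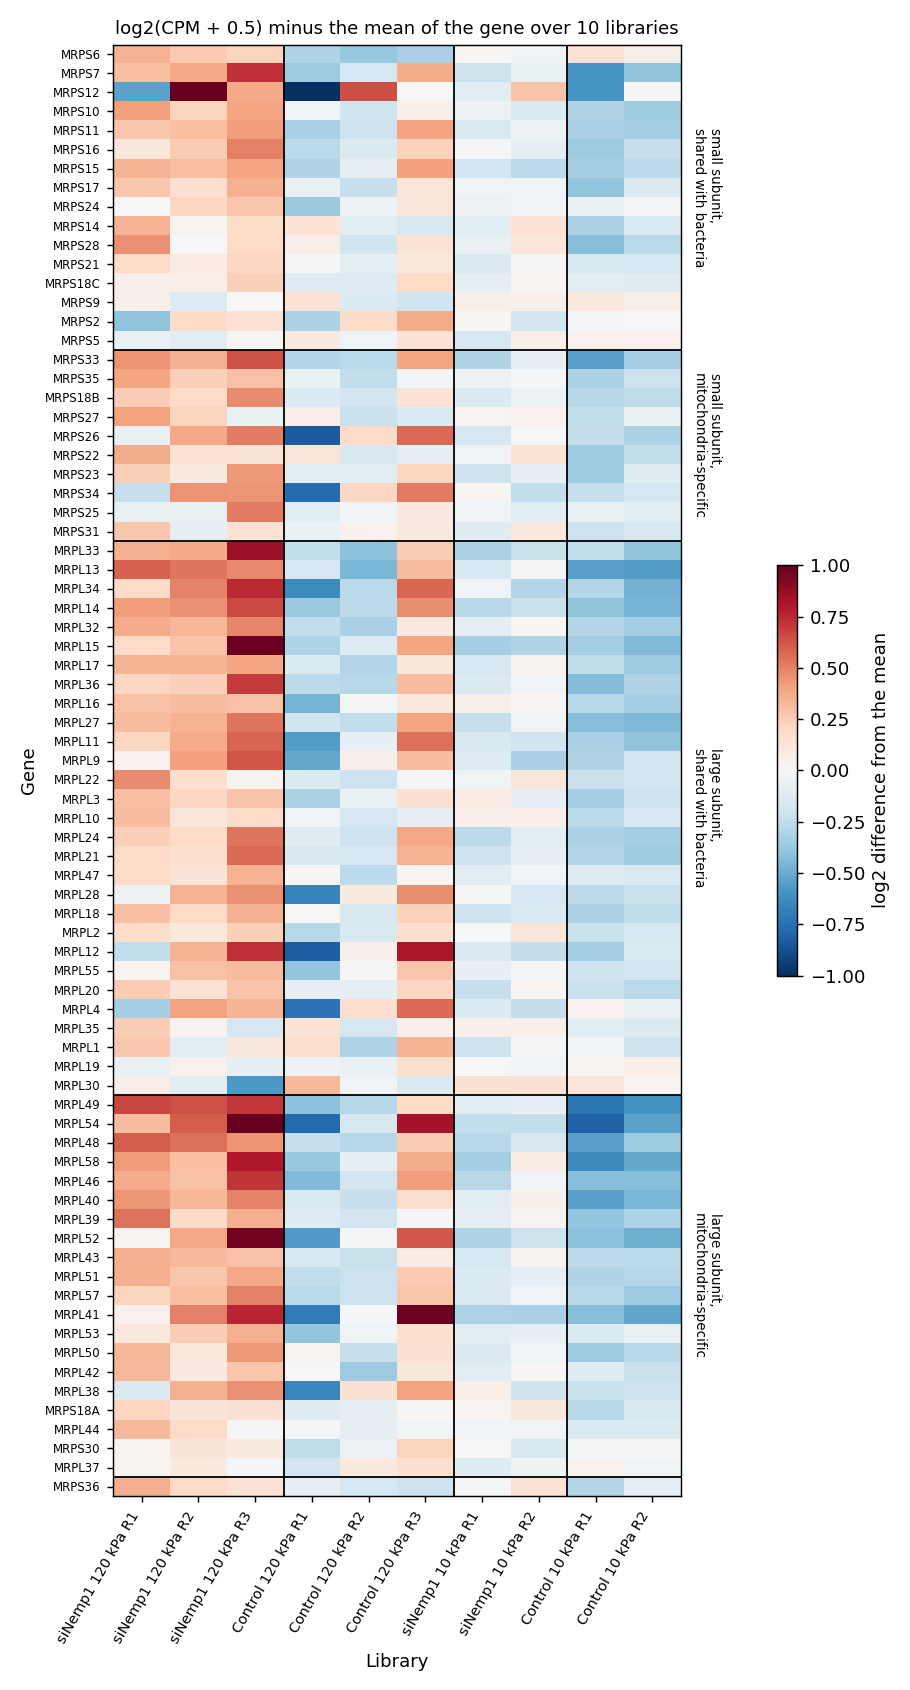
Level of 76 genes (rows, in 5 classes parted by black lines) in 10 libraries (columns, siNemp1 left of control within each stiffness), as log2(CPM + 0.5) minus the mean of the gene over all libraries. Colours stop at −1 and 1. Most rows are red in the siNemp1 libraries at 120 kPa and blue in the controls at 10 kPa, and control replicate 3 at 120 kPa is red in many rows.

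At 10 kPa most genes of the mitochondrial ribosome again read higher in siNemp1 cells. Their sum was 3749 and 3869 CPM in siNemp1 libraries, against 3327 and 3407 CPM in controls. Nuclear complex I genes also summed higher, to 2800 and 2930 CPM, against 2573 and 2607 CPM in controls. Cytosolic ribosomal protein genes summed to 49872 and 54631 CPM, against 47658 and 47503 CPM in controls. The median log2 difference of the 76 genes was 0.19, against 0.00 over all tested genes, and 67 of 76 values were positive. No gene was called in the edgeR fit of all libraries, among the 76 or among all 13990 (0%), and 6 of the 76 had an unadjusted p under 0.05, beside 850 of the 13990. In a fit of the 4 libraries at 10 kPa alone, 22 of 76 rose and none fell, with a median of 0.17, where 1081 of 13345 tested genes (8.1%) rose. That fit has a spread estimated from pairs of libraries, and 14 of its 22 genes were among the 25 of the blocked fit at 120 kPa.

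MRPL49 again led, with 150 and 153 CPM in siNemp1 libraries at 10 kPa, against 97.6 and 107 CPM in controls. Its log2 difference was 0.57 ± 0.18 in the fit of all libraries (edgeR adjusted p = 0.80) and 0.55 ± 0.06 in the fit of 4 libraries (adjusted p = 3.1e-06). MRPL40, a mitochondria-specific large subunit protein, read 32.7 and 36.5 CPM in siNemp1 libraries, against 24 and 25.5 CPM in controls. MRPS22, a small subunit protein without a bacterial counterpart, read 29.6 and 33.4 CPM in siNemp1 libraries, against 23.5 and 25.5 CPM in controls. In MRPL40 and MRPS22 the groups did not overlap. MRPS18A and MRPL10 differed by 0.29 ± 0.12 and 0.28 ± 0.12 in the fit of all libraries.

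The libraries at 10 kPa did not overlap in 56 genes that were higher and 5 that were lower in siNemp1 cells, against 28.8% higher and 28.5% lower among all tested genes. The 5 were MRPL4, MRPL19, MRPL37, MRPS6 and MRPS9. MRPS6 read 50.4 and 48.7 CPM in siNemp1 libraries, against 54.7 and 51.9 CPM in controls, a difference of −0.10 ± 0.11 in the fit of all libraries.

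Both stiffnesses together gave 22 of 76 genes (28.9%) in which all siNemp1 libraries were above all control libraries at 120 kPa and again at 10 kPa, against 8.01% of all tested genes. They were MRPL3, MRPL10, MRPL13, MRPL16, MRPL17, MRPL22, MRPL32, MRPL39, MRPL40, MRPL43, MRPL44, MRPL47, MRPL48, MRPL49, MRPL51, MRPS10, MRPS17, MRPS18A, MRPS18B, MRPS22, MRPS35 and MRPS36.

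The lists around the ribosome were counted in the fit of 4 libraries at 10 kPa. Of all genes tested there, 8.1% rose and 1227 of 13345 fell. Of 5 ribosomal proteins with other symbols 2 rose, PTCD3 and CHCHD1, and of 13 translation factors 1, GFM2. Of 25 assembly and RNA modification factors 4 rose, FASTKD2, METTL15, MRM3 and TRUB2. None of 12 genes for mitochondrial transcription and RNA stability was called by edgeR in that fit, although 2 had an unadjusted p under 0.05. Among the regulators of mitochondrial biogenesis GABPB1 rose by 0.38 ± 0.11. MT-RNR2 read 2910 and 2970 CPM in siNemp1 libraries, against 3660 and 3530 CPM in controls, and its log2 change in that fit was −0.31 ± 0.06 (edgeR adjusted p = 0.00069). Of the 13 messenger RNAs of mitochondrial DNA 6 fell and 1, MT-CO1, rose by 0.39 ± 0.07. At 120 kPa MT-CO1 had a log2 change of −0.72 ± 0.16 in the blocked fit. PPRC1 fell in the fit of 4 libraries at 10 kPa, with 40.8 and 42.6 CPM in siNemp1 libraries, against 54.2 and 54.4 CPM in controls.

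The next comparisons were of 120 kPa with 10 kPa within each treatment. They share libraries with the comparisons above and are set beside them, not counted as further evidence. In siNemp1 cells the median log2 difference of the 76 genes was 0.35 (all tested genes 0.02), with 72 of 76 values positive and 37 genes at an unadjusted p under 0.05, beside 1655 of the 13990. That median became 0.19 with length and GC trends removed and 0.07 with the replicate block besides. The block joins same-numbered libraries of both stiffnesses, a pairing that was not checked, and replicate 3 exists only at 120 kPa. In control cells it was 0.24 (all tested genes −0.01), with 70 of 76 values positive and 9 genes at an unadjusted p under 0.05, beside 569 of the 13990. The control median became 0.25 and 0.12 under the same changes. None of the 76 was called by edgeR in siNemp1 cells, where the background was 0%, or in control cells, where it was 0.0143%. Cytosolic ribosomal protein genes summed to 68866, 69238 and 75320 CPM in siNemp1 libraries at 120 kPa, against 49872 and 54631 CPM at 10 kPa. In control libraries the sums were 50514, 52529 and 71148 CPM, against 47658 and 47503 CPM.

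DESeq2 called MRPL48 and MRPL49 higher at 120 kPa in siNemp1 cells, with 0.408% of all genes called higher. An edgeR fit with no filter on low counts called 11 of the 76 in siNemp1 cells, with a background of 1.94%. The libraries did not overlap in 54 genes that were higher and 1 lower at 120 kPa in siNemp1 cells, against 18.2% higher and 15.5% lower among all tested genes. In control cells these numbers were 31 and 1, against 10.3% higher and 11.9% lower. In control cells the median rests on replicate 3: without it the value was 0.09.

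MRPL49 differed by 0.77 ± 0.17 between 120 and 10 kPa in siNemp1 cells (edgeR adjusted p = 0.32) and by 0.52 ± 0.17 in control cells (adjusted p = 0.99). MRPL48 read 39.3, 38.0 and 35.2 CPM in siNemp1 cells at 120 kPa, against 21.1 and 23.0 CPM at 10 kPa, a log2 difference of 0.76 ± 0.18. MRPL33 differed by 0.84 ± 0.23 in siNemp1 cells, and its 2 control groups averaged 18.5 ± 4.72 CPM at 120 kPa (SD, n = 3) and 15.9 ± 1.24 CPM at 10 kPa (SD, n = 2). The gene that was lower at 120 kPa without overlap was MRPL30 in siNemp1 cells (−0.34 ± 0.19) and MRPS6 in control cells (−0.44 ± 0.10, edgeR adjusted p = 0.89).

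**Figure D4:**
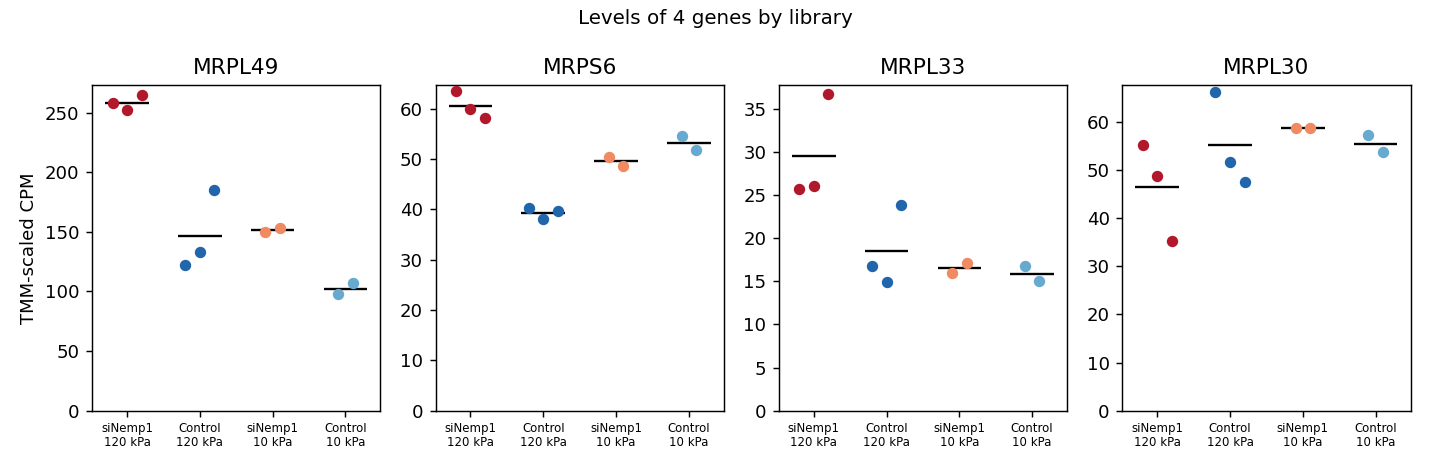
TMM-scaled CPM of MRPL49, MRPS6, MRPL33 and MRPL30 (y axis, from 0) in each library (points) by group (x axis), with a line at the mean of each group. MRPL49 is higher in siNemp1 than in control libraries at both stiffnesses, MRPS6 is lowest in control cells at 120 kPa, with 38.2 to 40.3 CPM, and at 120 kPa replicate 3 is the highest library of both groups in MRPL33 and the lowest in MRPL30.

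Whether the effect of siNemp1 differed between 120 and 10 kPa was tested as an interaction. None of the 76 genes was called by edgeR, and 1 gene of all tested was (0.00715%). The median interaction was 0.12 on the log2 scale, against 0.03 over all tested genes. It was 0.29 without control replicate 3 at 120 kPa and −0.05 once length and GC trends were removed, so its size and sign depended on these choices.

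MRPS6 was the only one of the 76 with an unadjusted interaction p under 0.05 in the fit without the block. Its interaction was 0.72 ± 0.15, with an unadjusted p of 0.00052 and an adjusted p of 1.0 in edgeR, and an adjusted p of 0.28 in DESeq2. The level in siNemp1 cells averaged 60.5 ± 2.69 CPM at 120 kPa (SD, n = 3) and 49.6 ± 1.22 CPM at 10 kPa (SD, n = 2). In control cells it averaged 39.4 ± 1.09 CPM at 120 kPa (SD, n = 3) and 53.3 ± 1.98 CPM at 10 kPa (SD, n = 2). The 4 groups did not overlap. SLC5A3, which overlaps it, averaged 20.5 ± 5.19 CPM at 120 kPa and 22.8 ± 0.234 CPM at 10 kPa in siNemp1 cells, and 19.1 ± 3.20 CPM at 120 kPa and 36.3 ± 4.51 CPM at 10 kPa in control cells. Its interaction was 0.77 ± 0.30 with an edgeR adjusted p of 1.0, and its part in the values of MRPS6 was not tested.

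Within the groups at 120 kPa, levels moved with the replicate number. Averaged over both treatments, replicate 3 minus replicate 1 had a median log2 difference of 0.26 over the 76 genes, with 62 positive, against 0.02 over all tested genes. The same difference was 0.39 for cytosolic ribosomal proteins, 0.27 for nuclear complex I genes and −0.70 for the 13 messenger RNAs of mitochondrial DNA. Mitochondrial RNA took 1.06%, 0.826% and 0.709% of counts in siNemp1 replicates 1, 2 and 3 at 120 kPa, against 1.73%, 1.40% and 0.913% in controls. The labels do not say what a replicate number stands for.

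Across the 76 genes, the difference between replicates 3 and 1 had a Pearson correlation of 0.72 with transcript GC content, and across 13826 genes of 0.40. MRPL12, MRPL41 and MRPL54 led it, with differences of 1.31, 1.20 and 1.16 and GC contents of 64.6%, 71.9% and 60.9%. The blocked log2 change under siNemp1 at 120 kPa had a correlation of 0.06 with GC content across the 76 genes, and that at 10 kPa of −0.04. With log transcript length the 3 correlations were −0.37, −0.33 and −0.11 across the 76 genes, and −0.13, −0.17 and −0.11 across the 13826. Each library's difference from the gene means was also correlated with log length over the 13826 genes. At 120 kPa this gave −0.18, −0.21 and −0.20 in siNemp1 and 0.18, 0.06 and −0.12 in control libraries. At 10 kPa it gave 0.10 and 0.01 in siNemp1 and 0.28 and 0.25 in control libraries. The part of length alone in the changes was not tested. These are descriptions across genes that share all their libraries, and genes are not independent replicates.

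**Figure D5:**
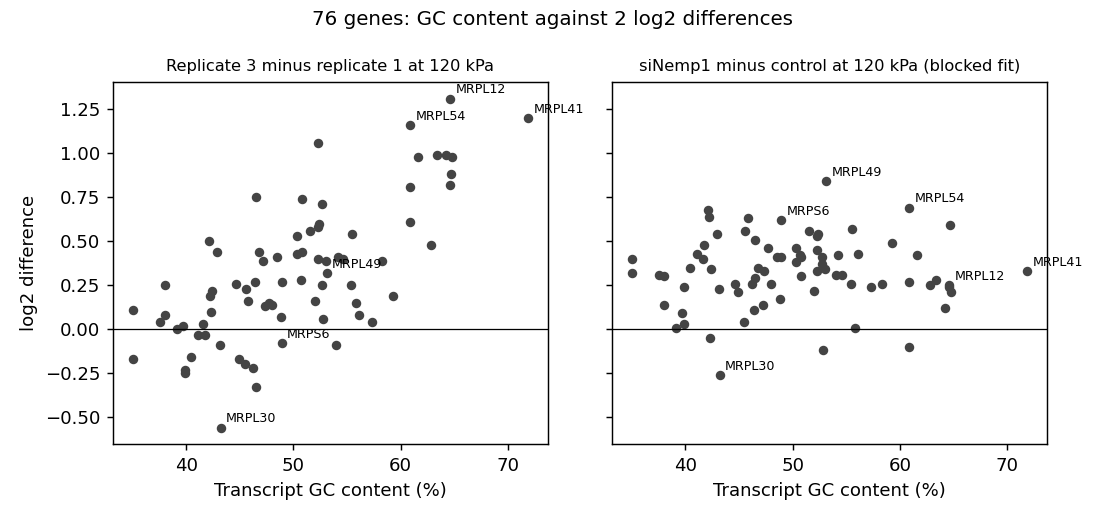
Transcript GC content of 76 genes (x axis, %) against the log2 difference of replicate 3 minus replicate 1 at 120 kPa, averaged over both treatments (left), and against the blocked log2 change of siNemp1 minus control at 120 kPa (right). Each point is 1 gene. GC-rich genes such as MRPL12 and MRPL41 are high on the left, and on the right the points show no trend (Pearson correlations 0.72 and 0.06).

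Several of these genes start next to another gene read in the other direction. Within 1000 bases, 17 of 76 (22.4%) had a protein-coding neighbour head to head, against 9.69% of 12408 tested coding genes. MRPL46 and MRPS11 face each other with starts 34 bases apart, 1 gene for each subunit. MRPL46 rose at 120 kPa by 0.54 ± 0.13, and MRPS11 differed by 0.38 ± 0.12 with an edgeR adjusted p of 0.072 in the blocked fit. MRPL36 faces NDUFS6 and MRPL47 faces NDUFB5, both neighbours encoding subunits of complex I. NDUFS6 differed by 0.08 ± 0.09 beside MRPL36, which rose by 0.46 ± 0.09, while NDUFB5 rose by 0.61 ± 0.14 beside MRPL47, which differed by 0.30 ± 0.10. Of the 16 tested neighbours, which include MRPL46 and MRPS11 themselves, 2 rose, MRPL46 and NDUFB5, against 6.24% of all tested genes, and the median log2 change of the 16 was 0.06.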

How the data were processed

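RNA of hTERT RPE-1 cells was sequenced from cells treated with siNemp1 or as controls on 120 or 10 kPa substrates, in 10 libraries grouped by their titles. Per the labels, rRNA was depleted with RNase H and cDNA was primed with random hexamers. Per the submitters' processing notes, GRCh38 was the build and the tools were Salmon 1.80 (version as given), Trimmomatic 0.33, FastQC 0.11.9 and edgeR (no version). The authors deposited expected counts per gene, estimated read counts not scaled between libraries. They were rounded to whole numbers here. Library totals were 17.9 to 23.8 M, and the lowest count of any of the 76 genes in a library was 89.

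Genes were filtered with filterByExpr and scaled with TMM, and a quasi-likelihood model of the 4 group means took in all 10 libraries (edgeR 4.0.16, limma 3.58.1, R 4.3.3; 6 residual degrees of freedom). Tests were two-sided with Benjamini-Hochberg adjustment over all 13990 tested genes, and an adjusted p under 0.05 was called. CPM values are TMM-scaled, and log2 changes carry the standard error of the fit. Whether replicate numbers pair libraries was checked by correlating deviations of same-numbered siNemp1 and control libraries from their group means. The correlations were 0.426, 0.157 and 0.359 at 120 kPa and 0.0171 at 10 kPa. A fit with the number as a block (4 residual degrees of freedom) is therefore given at 120 kPa. The block gives same-numbered libraries of both stiffnesses a shared effect, and replicate 3 exists only at 120 kPa. Whether numbers pair libraries across stiffnesses was not checked. DESeq2 1.42.0, other scalings and filters, fits of only the groups compared and leaving out each library were alternatives. Length and GC trends (removed with mgcv 1.9.3) and further blocked fits were added after seeing the data. The fits with and without the block were run on simulated counts with known changes in the siNemp1 libraries at 120 kPa. Those counts held no shared replicate effect and no length or GC trend. They therefore cannot show how the fits handle either. Transcript length and GC content are medians over the principal transcripts of GENCODE 29 on GRCh38, and promoters are from RefSeq.

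The genes and lists were chosen with earlier results of these data known. Genes named with values were the 5 positive and 5 negative with the smallest p per comparison, the 8 higher and 4 lower of the blocked fit at 120 kPa, the 3 highest and 3 lowest levels, 13 fixed members, and the leading 3 genes of each other list. Others, among them MRPL41, MRPL54, the genes shown for their promoters and the neighbours and overlapping genes, were chosen after their values were seen.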

Additional observations from a re-analysis of the deposited data

Results flagged for a closer look

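MRPS6 stood out in both pairs of comparisons because its differences had opposite signs. Between siNemp1 and control cells it was higher at 120 kPa, where all 3 siNemp1 libraries (58.2 to 63.5 CPM) were above all 3 controls (38.2 to 40.3 CPM), and lower at 10 kPa, where both siNemp1 libraries (48.7 and 50.4 CPM) were below both controls (51.9 and 54.7 CPM). The log2 difference at 10 kPa was −0.1 in the fit of all libraries, smaller than its standard error. At that stiffness 28.5% of all tested genes were lower in siNemp1 cells without overlap. Between 120 and 10 kPa MRPS6 was higher at 120 kPa in siNemp1 cells and lower in control cells. The difference between the effects was 0.72 on the log2 scale for either pair. Its unadjusted p was 0.00052 in edgeR, 8.2e-05 in DESeq2 and 0.0003 with the replicate block, and the adjusted p was 1.0, 0.28 and 0.49, so it did not pass the correction over all genes.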

How the results depend on the processing

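At 120 kPa the number of the 76 genes called under siNemp1 moved most. It was 0 without a replicate block and 25 with the replicate block, 12 in DESeq2, 8 with no filter on low counts and 2 (MRPL49 and MRPS6) with at least 5 CPM in 2 libraries. Leaving out 1 library gave 0 to 22, the 22 without control replicate 3. Blocked fits added later called 10 with length and GC trends removed, 22 with upper-quartile scaling, 26 in the 120 kPa libraries only, and 18, 0 and 21 without the pair numbered 1, 2 and 3. At 10 kPa 22 genes were called when only those groups were fitted and 1 with the replicate block and length and GC trends removed. Between stiffnesses in siNemp1 cells 2 were called in DESeq2, 11 with no filter, and 3 each in the blocked fits without pair 1 or pair 3. The median log2 difference of that comparison, 0.35, became 0.19 with length and GC trends removed, 0.07 with the replicate block besides, and 0.20 with the block and upper-quartile scaling. In control cells the median of 0.24 ranged between 0.09 and 0.31 when 1 library was left out, and the median interaction of 0.12 between 0.01 and 0.29. The interaction became −0.05 with length and GC trends removed and −0.02 with the replicate block besides. The cause was not tested. The medians of siNemp1 against control stayed positive in all alternatives, at 0.21 to 0.44 at 120 kPa and 0.14 to 0.25 at 10 kPa. Of 834 values of named genes under the alternatives, 747 kept their side of the threshold, 87 newly passed it and none was called in the opposite direction. Signs of small differences that were not called did change. Between stiffnesses in control cells, 70 of the 76 values were positive in the fit without the block and 72 in DESeq2. The fit without the block called none of these genes, so no call could be lost. The replicate block changed no call between stiffnesses or in the interaction. Each of the 76 genes had at least 89 counts in every library, and groups held 2 or 3 libraries.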
